A study of Mus musculus with 11 samples.

Results

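The genes described here are the 9 genes of the mouse MHC class II pathway named H2-Aa, H2-Ab1, H2-Eb1, H2-DMa, H2-DMb1, H2-DMb2, H2-Oa, H2-Ob and Ciita, out of 22180 genes measured on the same arrays. The list is a gene family by name, put together with earlier results of these data known. Their probe sets were selected on the level averaged over the 11 arrays, as the brightest probe set with exactly 1 symbol for each gene. Each of the 9 genes had only 1 such probe set, so the level decided nothing between probe sets. These means lay between 4.87 for H2-DMb1 and 10.39 for H2-DMa on the log2 scale, and since they belong to different probe sets their order says nothing about the order of the transcripts. All 9 lay above 3.25, where the dimmest 33.3% of all gene means ended.

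The cells were common lymphoid progenitors (CLPs), the marrow precursors of B, T and other lymphoid cells, from C57BL/6 mice. The mice received either CpG1826, a synthetic oligonucleotide that engages Toll-like receptor 9, at 50 µg every other day, or PBS, and the marrow was taken on day 10. CLPs were sorted by surface Ly-6D, which marks the CLPs that have begun to turn towards the B lineage. The groups were 3 arrays of Ly-6D+ CLPs after CpG, 2 of Ly-6D+ CLPs after PBS, 3 of Ly-6D- CLPs after CpG and 3 of Ly-6D- CLPs after PBS. All groups share the strain, the marrow source and the day of harvest. The labels give no age and leave unsaid if a replicate is 1 mouse, a pool of mice or a repeat of the same RNA, so a p-value here covers the spread between these samples alone, which may be technical. The RNA comes from sorted cells in bulk, so a change in the share of cells that express a gene and a change in RNA per cell cannot be told apart.

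MHC class II molecules present peptides from endocytosed material to CD4 T cells. An alpha and a beta chain pair in the endoplasmic reticulum with the invariant chain, whose remnant in the groove is later exchanged for peptide by the chaperone DM, while the related DO holds DM back. CIITA, the class II transactivator, does not bind DNA itself but docks on the RFX, CREB and NF-Y proteins that sit on the X and Y boxes of these promoters, and its own gene is switched on by separate promoters in dendritic cells, in B cells and after interferon-gamma.

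The promoter letters on which this assembly sits are shown for the genes in which they were found. RefSeq promoters of the GRCm38.p6 build, running from 250 bases before to 50 bases after each start, were at hand for 7 of the 9 genes as 8 entries, and H2-Ab1 and Ciita had none. The letters searched, on both strands, were TGATTGG for the Y box and AACNNATG for the X box, both chosen after the windows had been read, and neither overlaps the other. In the lines that follow, 73 bases are given 5′ to 3′ on the strand of the gene, ending just past the Y box letters, and the capitals mark the X and Y letters.
H2-Aa, chr17:34287861-34287933, minus strand: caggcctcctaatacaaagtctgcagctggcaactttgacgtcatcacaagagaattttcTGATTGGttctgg
H2-Eb1, chr17:34305746-34305818, plus strand: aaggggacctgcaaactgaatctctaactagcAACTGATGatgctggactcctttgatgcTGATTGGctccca
H2-DMb1, chr17:34153068-34153140, plus strand: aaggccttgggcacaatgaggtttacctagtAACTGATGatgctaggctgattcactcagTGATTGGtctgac
H2-DMb2, chr17:34145097-34145169, plus strand: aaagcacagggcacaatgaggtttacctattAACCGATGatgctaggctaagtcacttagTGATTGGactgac
H2-Oa, chr17:34092274-34092346, plus strand: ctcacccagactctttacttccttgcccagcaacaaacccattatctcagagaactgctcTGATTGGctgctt
H2-Ob, chr17:34238786-34238858, plus strand: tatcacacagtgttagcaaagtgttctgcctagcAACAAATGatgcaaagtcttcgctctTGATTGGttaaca

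All 6 windows carry the Y letters in the sense direction, at 45 bases before the annotated start in H2-Oa, 50 in H2-Aa, 59 in H2-Ob, 61 in H2-Eb1, 63 in H2-DMb1 and 92 in H2-DMb2. The X letters precede them by 28 bases in H2-Eb1, by 29 in H2-DMb1 and in H2-DMb2 and by 26 in H2-Ob. Neither set of letters lies in the 2 H2-DMa entries, and the X letters are missing from the H2-Aa and H2-Oa windows. Of 32851 promoter entries of 300 bases, 7.82% hold the Y letters on either strand and 8.86% the X letters. The pair, with X 20 to 35 bases before Y on 1 strand, is in 13 entries (0.0396%), which include 4 of the genes described here and H2-Eb2, a further class II beta chain gene. Both sets of letters are present in H2-Eb1, which rose with CpG, and in H2-Ob, which did not pass. The absence of these letters says nothing about whether a factor binds.

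Ly6d, the gene of the sorted protein, averaged 12.57 ± 0.03 after CpG (SD, n = 3) and 12.58 ± 0.02 after PBS (SD, n = 2) on Ly-6D+ arrays, and in Ly-6D- CLPs it averaged 7.72 ± 0.32 after CpG and 8.23 ± 0.24 after PBS (SD, n = 3 for both), so each array matched its population. Array medians lay between 3.85 and 3.96. How precise the values are is set by how few arrays there were, and no detection call was used. The mean of 7 measured progenitor markers (Il7r, Flt3, Kit, Cd93, Rag2, Dntt and Ly6d) lay between 10.42 and 10.54 in Ly-6D+ CLPs after CpG and at 10.52 on both arrays after PBS. In Ly-6D- CLPs it lay between 9.33 and 9.62 after CpG and between 9.91 and 9.95 after PBS, with no overlap. This mean includes Ly6d, which differed by 4.35 between the populations after PBS, so its gap between the populations holds the sort itself. After PBS, Il7r was higher in Ly-6D+ than in Ly-6D- CLPs by 0.68 and Kit was lower, by -1.08.

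The genes of the classical class II chains rose with CpG in both populations, and they were the only ones of the 9 that passed in either population by itself. H2-Eb1, the beta chain of H2-E, rose 9.77-fold in Ly-6D+ CLPs and 6.89-fold in Ly-6D- CLPs. H2-Aa, the alpha chain of H2-A, rose 9.21-fold in the Ly-6D+ and 5.37-fold in the Ly-6D- population, and H2-Ab1, its beta chain, rose 3.99-fold in Ly-6D+ and 3.53-fold in Ly-6D- CLPs. Among Ly-6D+ CLPs 3 of the 9 genes passed as higher and 0 as lower, while 0.0271% of all genes passed as higher. In Ly-6D- CLPs 3 passed as higher and 0 as lower, against 0.302% of all genes. The family was picked knowing of these changes, so the counts are a description. The threshold throughout is a Benjamini-Hochberg adjusted p below 0.05 over all 22180 genes in limma.

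H2-Aa read 9.83, 10.04 and 9.30 in Ly-6D+ CLPs after CpG, against 6.61 and 6.44 after PBS. In Ly-6D- CLPs it read 9.70, 9.75 and 9.39 after CpG, against 7.32, 7.30 and 6.95 after PBS. The CpG and PBS arrays were wide apart in either population. The log2 change was 3.20 (SE 0.21, limma adjusted p = 0.00038) in Ly-6D+ CLPs and 2.43 (SE 0.19, adjusted p = 0.00159) in Ly-6D- CLPs. The order of the group means was 9.72 in Ly-6D+ CLPs after CpG, 9.61 in Ly-6D- CLPs after CpG, 7.19 in Ly-6D- CLPs after PBS and 6.52 in Ly-6D+ CLPs after PBS. The 2 CpG groups at the top overlapped, and the 2 PBS groups at the bottom did not.

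H2-Ab1 read 10.52, 10.80 and 10.14 in Ly-6D+ CLPs after CpG, against 8.69 and 8.30 after PBS. In Ly-6D- CLPs it read 10.65, 10.68 and 10.36 after CpG, against 8.64, 8.67 and 8.92 after PBS. Every CpG array lay above every PBS array, and within each treatment the populations overlapped. The log2 change was 2.0 (SE 0.20, adjusted p = 0.00563) in Ly-6D+ CLPs and 1.82 (SE 0.18, adjusted p = 0.00624) in Ly-6D- CLPs. This was the smallest change of the 3 classical chain genes in both populations.

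H2-Eb1 read 9.23, 9.30 and 8.54 in Ly-6D+ CLPs after CpG, against 5.76 and 5.71 after PBS. In Ly-6D- CLPs it read 9.07, 9.02 and 8.63 after CpG, against 6.43, 6.20 and 5.74 after PBS. The treatments were wide apart and the populations overlapped within each treatment. The log2 change was 3.29 (SE 0.25, adjusted p = 0.000926) in Ly-6D+ CLPs, the highest of all 22180 genes there, and 2.79 (SE 0.23, adjusted p = 0.00159) in Ly-6D- CLPs, where it ranked 4. H2-Aa ranked 3 in Ly-6D+ and 6 in Ly-6D- CLPs, and H2-Ab1 ranked 8 in Ly-6D+ and 11 in Ly-6D- CLPs. H2-Ea, the gene of the alpha chain that pairs with the H2-Eb1 product, is known to be silent in C57BL/6 mice, and its probe set read between 2.23 and 2.84 on all arrays, within the dimmest 33.3% of genes.

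The calls in Ly-6D+ CLPs rest on a spread estimated over all 4 groups. In a fit of just the 5 Ly-6D+ arrays, 0 of the 9 genes passed, with the same changes and adjusted p = 0.226 for H2-Aa and H2-Eb1 and 0.427 for H2-Ab1. In the fit of the 6 Ly-6D- arrays alone all 3 classical chain genes still passed.

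**Figure D1:**
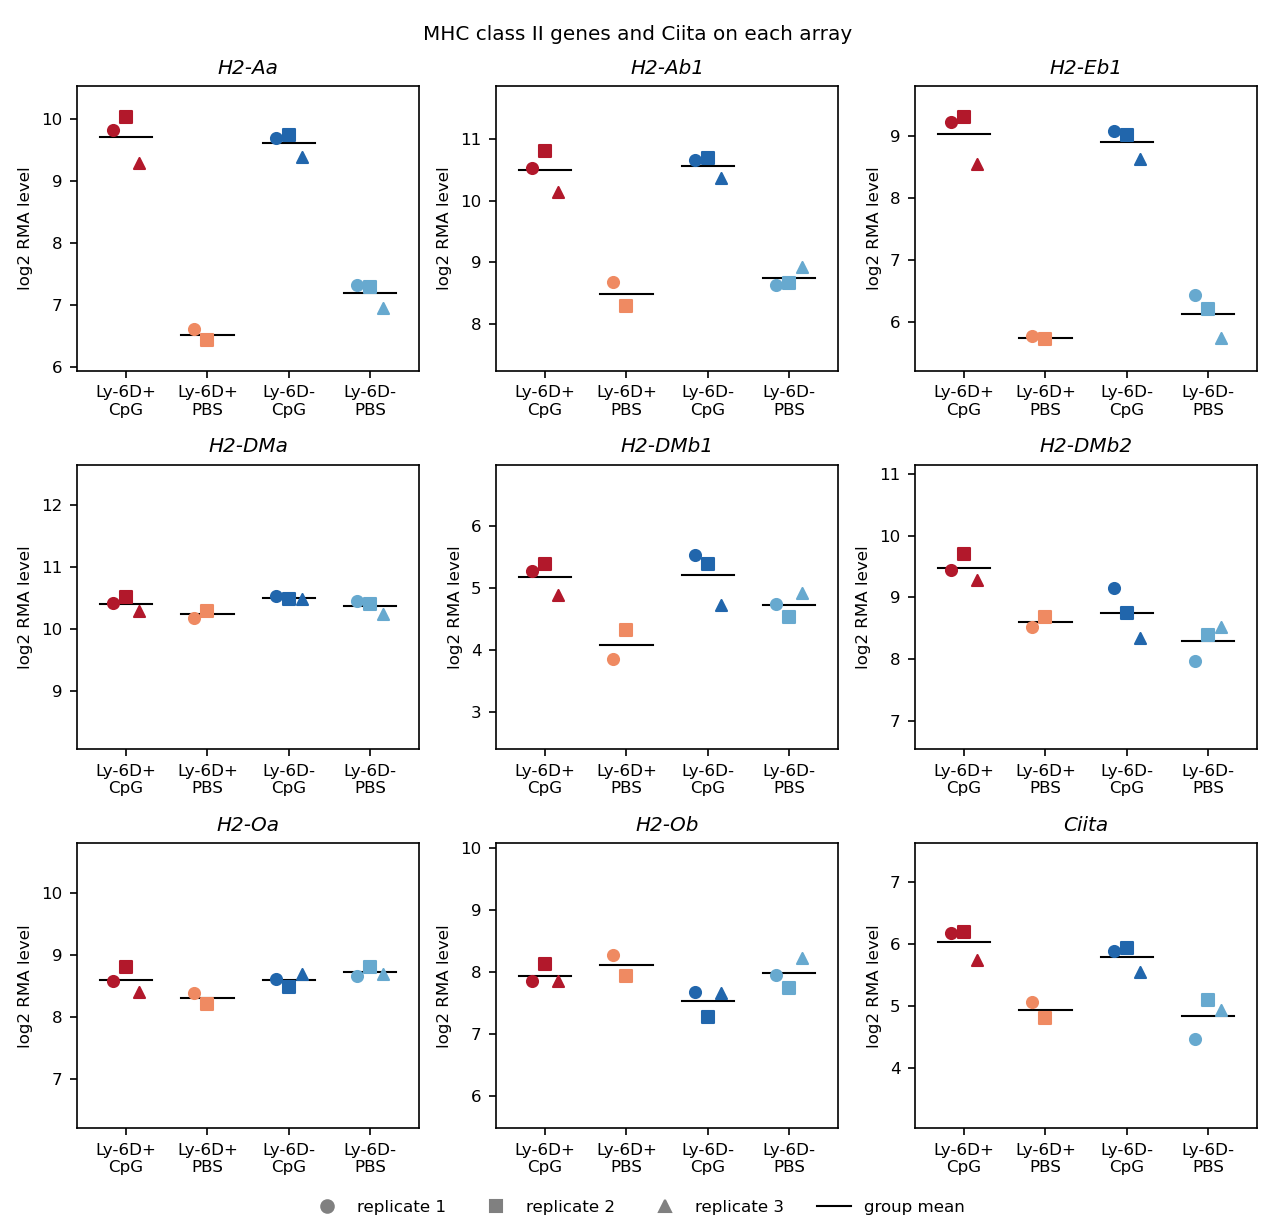
Level of each of the 9 genes on each of the 11 arrays (vertical axis, log2 RMA level, every panel spanning the same number of log2 units around its own centre; horizontal axis, the 4 groups), with marker shapes for the replicate number and a line at the group mean. H2-Aa, H2-Ab1 and H2-Eb1 separate the CpG arrays from the PBS arrays by the widest margins, H2-DMa hardly moves, and CpG array 3 of either population is low for most genes.

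Ciita, the transactivator, was also higher after CpG, by a smaller amount, and passed only in the average of both populations. It read 6.17, 6.19 and 5.74 in Ly-6D+ CLPs after CpG, against 5.06 and 4.81 after PBS. In Ly-6D- CLPs it read 5.89, 5.94 and 5.54 after CpG, against 4.46, 5.10 and 4.93 after PBS. All CpG arrays lay above all PBS arrays in both populations. The log2 change was 1.10 (SE 0.21, adjusted p = 0.179) in Ly-6D+ CLPs and 0.96 (SE 0.19, adjusted p = 0.0552) in Ly-6D- CLPs, neither of which passed. Averaged over both populations Ciita rose 2.04-fold (log2 change 1.03, SE 0.14, adjusted p = 0.0167).

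The averaged call for Ciita was lost when any of 5 single arrays was left out, with the highest adjusted p, 0.0895, without the second Ly-6D+ PBS array. The 5 were the first Ly-6D+ CpG array, either Ly-6D+ PBS array and the first and the second Ly-6D- CpG array. In the averaged comparison 4 of the 9 genes passed as higher, against 0.28% of all genes. They were Ciita and the 3 classical chain genes, whose averaged log2 changes were 3.04 for H2-Eb1 (SE 0.17), 2.81 for H2-Aa (SE 0.14) and 1.91 for H2-Ab1 (SE 0.13).

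The 3 genes of DM, which catalyses the exchange of the invariant chain remnant for peptide, did not pass in any comparison, and they differed among themselves. H2-DMb1 read 5.27, 5.39 and 4.89 in Ly-6D+ CLPs after CpG, against 3.85 and 4.32 after PBS. Its Ly-6D- values were 5.53, 5.39 and 4.72 after CpG, against 4.74, 4.53 and 4.91 after PBS. The treatments were apart in Ly-6D+ CLPs and overlapped in Ly-6D- CLPs, where CpG array 3 lay among the PBS arrays. The log2 differences were 1.10 (SE 0.25, adjusted p = 0.283) in Ly-6D+ CLPs, 0.48 (SE 0.22, adjusted p = 0.424) in Ly-6D- CLPs and 0.79 on average (SE 0.17, adjusted p = 0.0837). Without Ly-6D- CpG array 3 the averaged difference was 0.91 and passed, with an adjusted p of 0.0171.

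H2-DMb2, the other DM beta chain gene, read 9.45, 9.71 and 9.28 in Ly-6D+ CLPs after CpG, against 8.52 and 8.69 after PBS. It read 9.16, 8.75 and 8.35 in Ly-6D- CLPs after CpG, against 7.98, 8.40 and 8.52 after PBS. As with H2-DMb1, the Ly-6D+ groups did not overlap and the Ly-6D- groups did. The log2 differences were 0.88 (SE 0.23, adjusted p = 0.417) in Ly-6D+ CLPs, 0.45 (SE 0.21, adjusted p = 0.437) in Ly-6D- CLPs and 0.66 on average (SE 0.16, adjusted p = 0.118). Without Ly-6D- CpG array 3 the average was 0.76 and passed, with an adjusted p of 0.0394. The DM beta chain genes are close copies, and whether their probe sets read each other's transcripts was not tested.

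H2-DMa, the single DM alpha chain gene, stayed in a narrow range. It read 10.42, 10.51 and 10.29 in Ly-6D+ CLPs after CpG, against 10.17 and 10.29 after PBS, and 10.53, 10.48 and 10.48 in Ly-6D- CLPs after CpG, against 10.45, 10.40 and 10.24 after PBS. The CpG arrays lay above the PBS arrays in both populations, and the lowest CpG array and the highest PBS array of Ly-6D+ CLPs were equal after rounding. Its difference was 0.18 in Ly-6D+ CLPs, with a 95% interval of -0.06 to 0.41, and 0.13 in Ly-6D- CLPs, with an interval of -0.08 to 0.35. Both intervals end below the averaged change of Ciita and far below those of the classical chain genes.

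The genes of DO, the inhibitor of DM, also did not pass. H2-Oa, its alpha chain gene, read 8.58, 8.80 and 8.41 in Ly-6D+ CLPs after CpG, against 8.39 and 8.21 after PBS, and 8.61, 8.49 and 8.70 in Ly-6D- CLPs after CpG, against 8.66, 8.80 and 8.70 after PBS. The treatments were just apart in Ly-6D+ CLPs and overlapped in Ly-6D- CLPs. Its difference was 0.29 (SE 0.13, adjusted p = 0.749) in Ly-6D+ CLPs and -0.12 (SE 0.12, adjusted p = 0.764) in Ly-6D- CLPs. A further probe set annotated to H2-Oa and BC051537 was not used for the gene, and it differed by 0.23 in Ly-6D+ CLPs and by -0.01 in Ly-6D- CLPs. Between the populations, as Ly-6D+ minus Ly-6D-, this further probe set differed by -0.61 after PBS and by -0.37 after CpG, and neither passed. The probe set used for H2-Oa differed by -0.42 after PBS and by -0.0 after CpG.

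H2-Ob, the DO beta chain gene, was the only one of the 9 with a lower mean after CpG in both populations. It read 7.85, 8.12 and 7.85 in Ly-6D+ CLPs after CpG, against 8.28 and 7.94 after PBS, which overlapped. The Ly-6D- values were 7.68, 7.27 and 7.65 after CpG, against 7.95, 7.74 and 8.23 after PBS, with every CpG array below every PBS array. Its difference was -0.17 (SE 0.18, adjusted p = 0.958) in Ly-6D+ CLPs, -0.43 (SE 0.16, adjusted p = 0.31) in Ly-6D- CLPs and -0.30 on average (SE 0.12, adjusted p = 0.372).

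Counted by overlap, 8 of the 9 genes had every CpG array above every PBS array in Ly-6D+ CLPs, where 10.7% of all genes did so, and H2-Ob overlapped. In Ly-6D- CLPs 5 of the 9 did so, where 8.5% of all genes did. Those 5 were the classical chain genes, Ciita and H2-DMa. The median log2 difference of the 9 genes was 1.10 in the Ly-6D+ population, where all genes had a median of 0.0, and 0.48 in the Ly-6D- population.

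**Figure D2:**
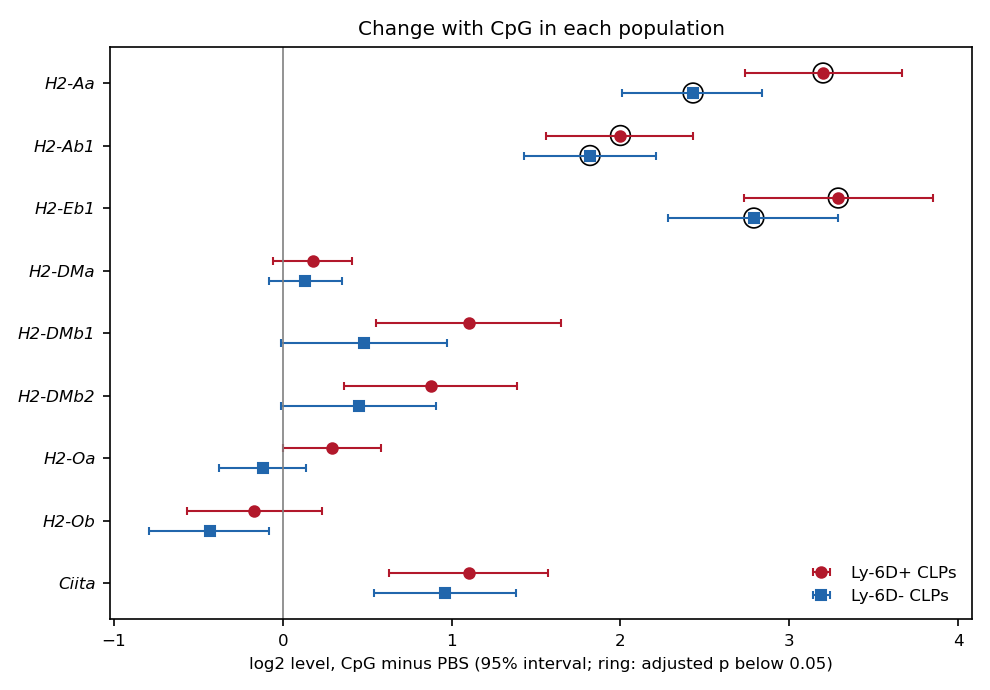
CpG minus PBS for each gene (horizontal axis, log2 difference with its 95% interval from limma) in Ly-6D+ CLPs (circles) and Ly-6D- CLPs (squares), with a ring where the adjusted p was below 0.05. The classical chain genes stand at 1.82 or more, Ciita, H2-DMb1 and H2-DMb2 lie between 0.45 and 1.10, and H2-DMa, H2-Oa and H2-Ob lie between -0.43 and 0.29.

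Whether the CpG change differed between the populations was tested as the change in Ly-6D+ CLPs minus the change in Ly-6D- CLPs. By limma 0 of the 9 genes passed and 0.0% of all genes did, with an unadjusted p below 0.05 for 2 of the 9 and for 6.37% of all genes. The estimate was above 0 for all 9 genes, with a median of 0.41, where 50.2% of all genes had one above 0. It was 0.78 for H2-Aa (SE 0.28, interval 0.15 to 1.40, adjusted p = 0.723), 0.50 for H2-Eb1 (SE 0.34) and 0.18 for H2-Ab1 (SE 0.27). Among the chaperones it was 0.61 for H2-DMb1 (SE 0.33), 0.43 for H2-DMb2 (SE 0.31) and 0.41 for H2-Oa (SE 0.17, adjusted p = 0.77). Ciita had 0.14 (SE 0.28, interval -0.49 to 0.77). All 9 estimates share the same 2 Ly-6D+ PBS arrays, and leaving out the second of them turned the sign for H2-Ab1 and leaving out the first, or Ly-6D+ CpG array 2, turned it for H2-DMa.

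After PBS, 0 of the 9 genes passed by limma between Ly-6D+ and Ly-6D- CLPs where 1.98% of all genes passed in either direction. An unadjusted p below 0.05 was reached by 3 of the 9 and by 11.9% of all genes. The Ly-6D+ arrays lay below all Ly-6D- arrays for 3 of the 9 genes, H2-Aa, H2-DMb1 and H2-Oa, and for 14% of all genes. The log2 difference, Ly-6D+ minus Ly-6D-, was -0.67 for H2-Aa (SE 0.21, adjusted p = 0.184), -0.64 for H2-DMb1 (SE 0.25, adjusted p = 0.31) and -0.42 for H2-Oa (SE 0.13, adjusted p = 0.177). Without the arrays numbered 3, a setting added after the data were seen, H2-Aa passed at -0.79 with an adjusted p of 0.0293. Ciita differed by 0.10 (SE 0.21), with a 95% interval of -0.37 to 0.57.

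After CpG the classical chain genes stood close together in both populations. The difference, Ly-6D+ minus Ly-6D-, was 0.11 for H2-Aa (interval -0.30 to 0.53), -0.07 for H2-Ab1 (interval -0.47 to 0.32) and 0.11 for H2-Eb1 (interval -0.39 to 0.61). Every Ly-6D+ array lay above every Ly-6D- array for 2 of the 9 genes and for 7.89% of all genes. The 2 were H2-DMb2 at 0.73 (SE 0.21, adjusted p = 0.134) and H2-Ob at 0.40 (SE 0.16, adjusted p = 0.324). By limma 0 of the 9 passed, where 2.14% of all genes passed in either direction, and an unadjusted p below 0.05 was reached by 2 of the 9 and by 12.7% of all genes.

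**Figure D3:**
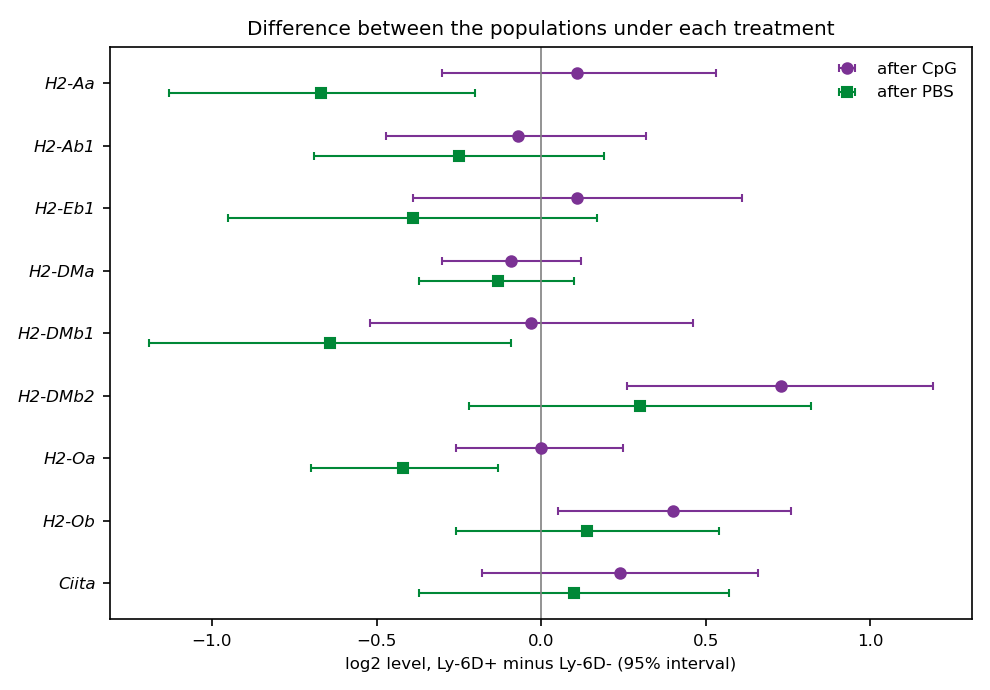
Ly-6D+ minus Ly-6D- CLPs for each gene (horizontal axis, log2 difference with its 95% interval from limma) after CpG (circles) and after PBS (squares). For H2-Aa, H2-DMb1 and H2-Oa the interval after PBS lies below 0 and the one after CpG spans 0, and no difference passed at an adjusted p below 0.05.

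The genes also varied together between arrays of 1 group. CpG array 3 was the lowest of its group in both populations for 7 of the 9 genes (77.8%), all but H2-Oa and H2-Ob, and for 3099 of all 22180 genes. The 2 arrays share a number in the labels, which do not say that it marks a shared animal or day. Without the arrays numbered 3 the same 3 classical chain genes passed in each population.

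Each gene was set against the mean of the classical chain genes, leaving the gene itself out, over the 11 arrays. These are descriptions over arrays of 4 groups, so the treatment itself enters them. Pearson's r was 1.0 for H2-Aa, 0.99 for H2-Eb1, 0.98 for H2-Ab1, 0.92 for Ciita, 0.82 for H2-DMb1, 0.71 for H2-DMa, 0.68 for H2-DMb2, 0.26 for H2-Oa and -0.52 for H2-Ob. After each array's value was set against its group mean, which removes the treatment, r was 0.96 for H2-Aa, 0.79 for H2-Eb1 and 0.56 for H2-Ab1. On that scale it was 0.68 for H2-DMa, 0.56 for Ciita, 0.53 for H2-DMb1, 0.52 for H2-Oa, 0.41 for H2-DMb2 and 0.06 for H2-Ob.

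Outside the family, with predicted and numbered symbols passed over, the 10 genes whose values followed the mean of H2-Aa, H2-Ab1 and H2-Eb1 most closely over the 11 arrays were Ddx39b, Samhd1, Igtp, Iigp1, H2-K1, Rtca, Sema4a, Clec4a3, Fcgr1 and S100a4, with r between 0.92 and 0.97. The passing over left out 1 symbol, a predicted gene that ranked above all 10. Igtp and Iigp1 encode interferon-inducible GTPases, and Samhd1 a nucleotide hydrolase. Their r over deviations from group means was 0.91, 0.93 and 0.89, while that of S100a4 was -0.24. Igtp averaged 9.35 ± 0.37 after CpG (SD, n = 3) and 8.40 ± 0.05 after PBS (SD, n = 2) on Ly-6D+ arrays, and in Ly-6D- CLPs 9.34 ± 0.23 after CpG and 8.31 ± 0.13 after PBS (SD, n = 3 for both). Its averaged log2 change was 0.99 (SE 0.13, adjusted p = 0.0167). Iigp1 rose by 2.24 on average (SE 0.26, adjusted p = 0.00853), Clec4a3, a C-type lectin receptor gene, by 1.2 (SE 0.19, adjusted p = 0.0309) and Samhd1 by 0.44 (SE 0.08, adjusted p = 0.0386). The 10 genes were picked for following genes that rose with CpG, so the picking itself favoured a CpG change in them. Their changes and adjusted p-values are a description and no separate support.

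Along chromosome 17, where the gene table of GRCm38.p6 places 8 of the 9 genes, the changes differed from gene to gene. From H2-Oa to H2-Eb1 the table lists 14 genes, in the order H2-Oa, Brd2, H2-DMa, H2-DMb2, H2-DMb1, Psmb9, Tap1, Psmb8, Tap2, H2-Ob, Gm20506, H2-Ab1, H2-Aa and H2-Eb1. The genes that passed, H2-Ab1, H2-Aa and H2-Eb1, are neighbours at the end of this stretch. Of the genes in between that are not of the family, 5 were measured and 0 passed by limma in either population. Tap1, a subunit of the peptide transporter of class I presentation, differed by 0.29 (SE 0.13) in Ly-6D+ CLPs and by 0.35 (SE 0.11) in Ly-6D- CLPs. Psmb9 differed by 0.24 (SE 0.13) in Ly-6D+ and 0.25 (SE 0.12) in Ly-6D- CLPs. Tap2 was lower after CpG, by -0.33 (SE 0.14) in Ly-6D+ and -0.18 (SE 0.13) in Ly-6D- CLPs. Psmb8, an immunoproteasome subunit gene, differed by 0.05 in Ly-6D+ and 0.03 in Ly-6D- CLPs, and Brd2, a bromodomain gene, by 0.01 in Ly-6D+ and -0.09 in Ly-6D- CLPs. Ciita lies apart from this region, on chromosome 16.

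**Figure D4:**
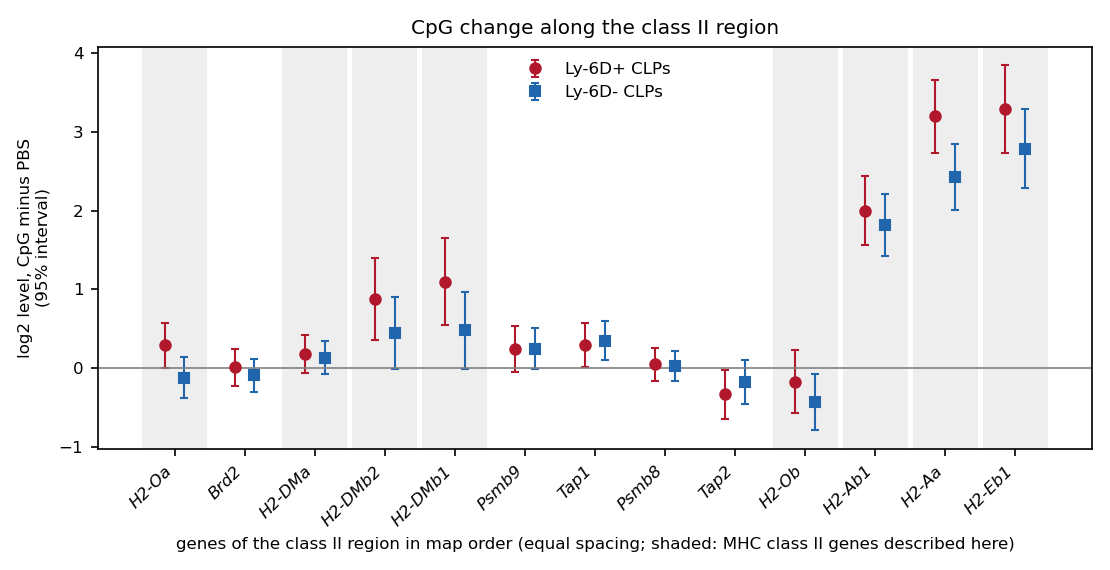
CpG minus PBS (vertical axis, log2 difference with its 95% interval from limma) for the measured genes of the class II region in their order on chromosome 17 (horizontal axis, equal spacing), with the class II genes shaded. The 3 classical chain genes at the right end stand at 1.82 to 3.29 in both populations, and the 5 other genes of the region lie between -0.33 and 0.35.

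The other genes of the pathway were followed on lists put together with earlier results known. The proteins on which CIITA docks are encoded by Rfx5, Rfxank, Rfxap, Nfya, Nfyb, Nfyc and Creb1, and 0 of these 7 passed in any comparison by limma, nor did any reach an unadjusted p below 0.05 with CpG. Their averaged CpG differences had a median of -0.08, between -0.15 for Rfxank and 0.11 for Rfxap. Of the interferon-gamma receptor and its signalling genes 6 of the 7 listed were analysed here and 0 passed by limma, with a median of 0.20 on average. An unadjusted p below 0.05 was reached by 4 of the 6 and by 11.3% of all genes, and 1 of the 4, the receptor chain gene Ifngr1, had a lower mean after CpG (-0.18, SE 0.08, adjusted p = 0.432). The values furthest from 0 were 0.42 for Jak2 (SE 0.12, adjusted p = 0.192), the receptor kinase, and 0.36 for Irf1 (SE 0.09, adjusted p = 0.125), the factor that acts at the interferon-responsive Ciita promoter.

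Of 6 lineage factors, most of them known to act at Ciita, 0 passed with CpG, and 5 passed between the populations after at least 1 treatment, where Ciita did not pass. Of all genes 1.98% passed between the populations after PBS and 2.14% after CpG. With CpG on average, 3 of the 6 and 11.3% of all genes reached an unadjusted p below 0.05 by limma. The 3 were Ebf1 at -0.62 (SE 0.13, adjusted p = 0.0837), Pax5 at -0.37 (SE 0.13, adjusted p = 0.28) and Spi1 at 0.30 (SE 0.10, adjusted p = 0.244). Ebf1, a founding factor of the B lineage, averaged 8.63 ± 0.21 (SD, n = 3) in Ly-6D+ CLPs and 4.78 ± 0.36 (SD, n = 3) in Ly-6D- CLPs after CpG, a difference of 3.85 (SE 0.17, adjusted p = 1.62e-06). Pax5, which maintains B cell identity, differed by 2.53 after CpG (SE 0.17, adjusted p = 2.92e-05) and by 2.57 after PBS (SE 0.19, adjusted p = 5.08e-05). Irf4 was higher in Ly-6D+ CLPs after CpG by 1.19 (SE 0.19, adjusted p = 0.00801), and Irf8 was higher there after PBS by 0.72 (SE 0.10, adjusted p = 0.00404). Spi1, which encodes PU.1, was lower in Ly-6D+ CLPs after CpG, by -0.79 (SE 0.13, adjusted p = 0.00944).

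Among genes that serve class II presentation without belonging to the 9, 8 of 9 listed were among the 22180 genes. Of these 8, 2 passed as higher on average, against 0.28% of all genes. The listed gene left out, Cd74, had a probe set with 2 symbols, which rose by 2.23 on average and is described apart. Ifi30, the lysosomal thiol reductase that opens disulfide bonds of antigens, averaged 9.08 ± 0.13 after CpG (SD, n = 3) and 8.11 ± 0.07 after PBS (SD, n = 2) on Ly-6D+ arrays, and in Ly-6D- CLPs 9.72 ± 0.42 after CpG and 7.50 ± 0.48 after PBS (SD, n = 3 for both). Its rise in the Ly-6D- population was 2.23 (SE 0.24, adjusted p = 0.0066) and the averaged one 1.60 (SE 0.18, adjusted p = 0.00853), while its Ly-6D+ difference of 0.98 (SE 0.27, adjusted p = 0.459) did not pass. The difference between the populations did not pass either (-1.25, SE 0.37, adjusted p = 0.622). H2-Eb2, the further beta chain gene whose promoter holds the X and Y letters, rose by 0.92 on average (SE 0.15, adjusted p = 0.0339), and it was higher in Ly-6D+ CLPs by 1.56 after CpG (SE 0.20, adjusted p = 0.00219) and by 1.06 after PBS (SE 0.23, adjusted p = 0.0437).

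The list median of the average was 0.25. Ctss and Lgmn, which encode proteases that cut the invariant chain and antigens, differed by 0.23 (SE 0.08) and 0.53 (SE 0.13) on average and did not pass. Of the 3 costimulatory genes 0 passed, with 0.53 for Cd40, 0.35 for Cd80 and -0.07 for Cd86.

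For class I presentation, 8 of 9 listed genes were among the 22180 genes, with a list median of 0.22 on average. Of these 8, 2 passed as higher on average, against 0.28% of all genes. Nlrc5, which encodes the class I counterpart of CIITA, rose by 0.50 (SE 0.09, adjusted p = 0.0411), and H2-K1, a classical class I heavy chain gene, by 0.42 (SE 0.07, adjusted p = 0.0424). H2-K1 belongs to a family of near copies, whose part in its value was not tested.

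**Figure D5:**
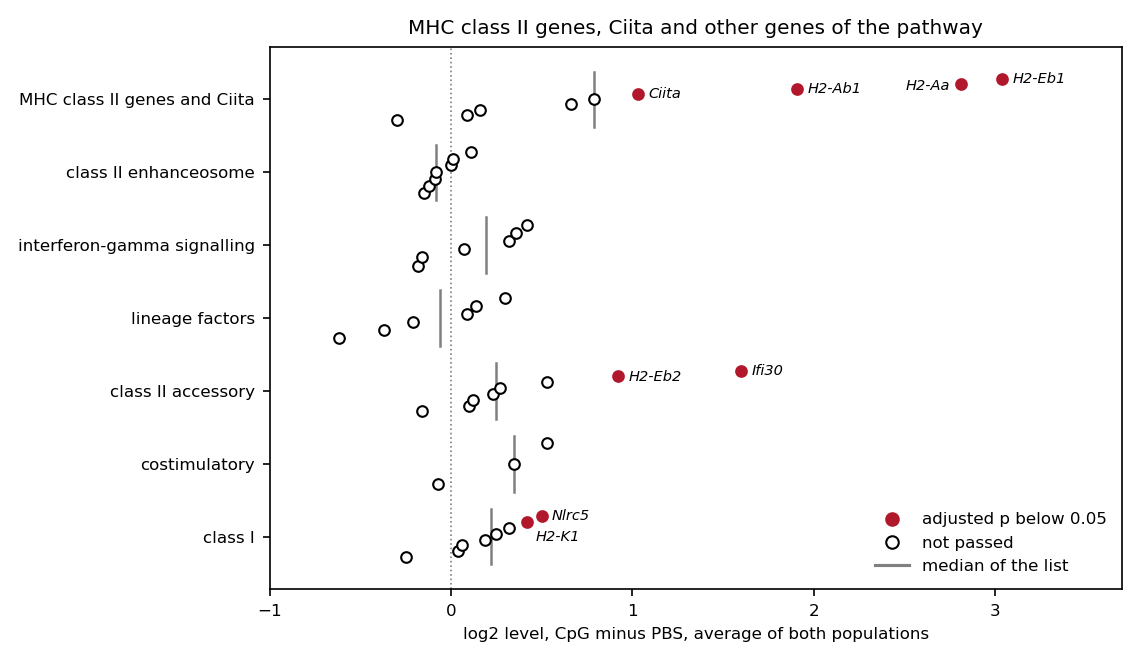
CpG minus PBS averaged over both populations (horizontal axis, log2 difference) for the 9 genes and for the lists of the pathway (rows, 1 point per gene, grey line at the list median), with filled points at an adjusted p below 0.05. Beyond Ciita and the 3 classical chain genes only Ifi30, H2-Eb2, Nlrc5 and H2-K1 are filled, and the enhanceosome genes sit close to 0.

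Mature antigen-presenting cells carry much class II RNA, so markers of such cells were read beside the class II genes. For mature B cells 4 of 6 markers were among the 22180 genes, 0 passed with CpG, and Ms4a1, Cr2 and Fcer2a lay in the dimmest 33.3%. The other measured marker, Cd22, an inhibitory receptor of B cells, differed by 0.20 (SE 0.19) in Ly-6D+ CLPs and by 0.83 (SE 0.17, adjusted p = 0.0596) in Ly-6D- CLPs, where every CpG array lay above every PBS array. The array means of these 4 ran from 3.50 to 3.82 in Ly-6D+ CLPs after CpG and from 3.69 to 3.85 after PBS, and from 3.52 to 3.86 in Ly-6D- CLPs after CpG and from 3.31 to 3.44 after PBS. The 6 measured markers of conventional dendritic cells averaged 5.33 to 5.41 in Ly-6D+ CLPs after CpG and 5.13 to 5.21 after PBS, and 5.36 to 5.66 in Ly-6D- CLPs after CpG and 5.16 to 5.19 after PBS. For this list the array means after CpG thus lay above those after PBS in both populations. Gene by gene, Batf3 alone of the 6 had every CpG array above every PBS array among Ly-6D+ arrays, and the others overlapped. Of all genes 10.7% were so separated there. Among Ly-6D- arrays Batf3, Itgax and Itgam were separated in this way, as were 8.5% of all genes, and Zbtb46, Xcr1 and Cd209a overlapped.

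Of the 6 conventional dendritic cell markers, Batf3, a factor of dendritic cell development, rose on average by 0.92 (SE 0.15, adjusted p = 0.0309). Xcr1 lay in the dimmest 33.3%. The other averaged differences, none of which passed, were 0.44 for Itgam, 0.27 for Itgax, 0.08 for Zbtb46, -0.02 for Cd209a and -0.07 for Xcr1. Itgax, the gene of CD11c, differed by 0.01 (SE 0.18) in Ly-6D+ CLPs and by 0.54 (SE 0.16, adjusted p = 0.192) in Ly-6D- CLPs. For monocytes and macrophages 6 of 7 markers were among the 22180 genes and 0 passed with CpG, with a median of 0.42 on average. Their array means ran from 5.17 to 5.80 in Ly-6D+ CLPs after CpG and from 4.97 to 5.31 after PBS, and from 5.71 to 6.31 in Ly-6D- CLPs after CpG and from 5.40 to 5.49 after PBS. Nearest to the threshold were Fcgr1 on average, at 0.83 (SE 0.15, adjusted p = 0.0515), and Csf1r in Ly-6D- CLPs, at 1.08 (SE 0.21, adjusted p = 0.0524). In Ly-6D+ CLPs Csf1r differed by 0.30 (SE 0.23). The averaged differences were 0.72 for Adgre1 (SE 0.33), 0.69 for Csf1r (SE 0.16), 0.15 for Lyz2, 0.06 for Cd14 and 0.04 for Mrc1. Fcgr1 is also among the 10 genes that follow the classical chain genes. The part of such cells in the class II changes was not tested.

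Of the 6 plasmacytoid dendritic cell markers, 5 passed as higher in Ly-6D+ CLPs after CpG and 4 after PBS. Of all genes, 2.14% passed in either direction after CpG and 1.98% after PBS. The 6 genes averaged 8.40 to 8.84 on the Ly-6D+ arrays and 7.07 to 7.50 on the Ly-6D- arrays, and 0 passed with CpG. All 7 measured progenitor markers had a lower mean after CpG in the Ly-6D- population, with a median log2 difference of -0.38, and all 7 had an unadjusted p below 0.05 there, as did 12.0% of all genes. Of these 7 markers 2 passed, against 121 of all 22180 genes in either direction. Il7r fell by 0.81 (SE 0.13, limma adjusted p = 0.03) and Rag2 fell by 0.75 (SE 0.11, adjusted p = 0.0221), both on a log2 scale. In Ly-6D+ CLPs, where the classical chain genes also rose, 5 of the 7 had a lower mean after CpG, with a median of -0.03, and 0 passed. The part of the progenitor shift in the class II changes was not tested.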

How the data were processed

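RNA of sorted cells was amplified from 5 ng with the NuGen Ovation Pico WTA kit and 5 µg of cDNA was labelled, per the labels. The deposited values are log2 levels that the authors made by RMA, with Partek as the software (both per the submitters' processing notes), with versions and build not given in the sources used here. Of 41345 probe sets, 23521 carry 1 symbol in the platform annotation, and the brightest of them on average stands for each of 22180 genes. A mean per group was fitted to all arrays by lmFit and default eBayes of limma 3.58.1 (R 4.3.3), with Benjamini-Hochberg adjustment over all genes. The fit was tested on simulated data. The named genes are all 9 genes, up to 4 genes per pathway list by p plus those that passed, the neighbours in the class II region, the 10 genes with the highest r once predicted and numbered symbols were passed over, and Ly6d. Marker genes beyond these were named after their values were seen. The genes, lists and tests were chosen with earlier results of these data known. The labels do not say whether replicate numbers pair the arrays, and the reported fit did not use them. Python 3.11.15 with pandas 2.3.3 prepared the tables.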

Additional observations from a re-analysis of the deposited data

Results flagged for a closer look

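The probe set annotated to both Cd74, the gene of the invariant chain, and Mir5107 was kept out of the comparisons because it carries 2 symbols, and it rose with CpG. It averaged 10.71 ± 0.47 (SD, n = 3) in Ly-6D+ CLPs after CpG and 8.13 in both arrays after PBS, and in Ly-6D- CLPs 10.52 ± 0.25 after CpG and 8.65 ± 0.04 after PBS (SD, n = 3 for both). Over all 41345 probe sets its log2 change was 2.58 in Ly-6D+ CLPs (SE 0.24, limma adjusted p = 0.0151), 1.88 in Ly-6D- CLPs (SE 0.22, adjusted p = 0.0328) and 2.23 on average (SE 0.16, adjusted p = 0.0017). The probe set cannot say which of the symbols gave the signal. The difference between the populations, 0.71, did not pass (SE 0.33, adjusted p = 0.905).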

How the results depend on the processing

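Over 1224 refits of the 9 genes under other settings, 1180 kept direction and call. The classical chain genes passed with CpG in Ly-6D- CLPs and on average in every refit run. In Ly-6D+ CLPs 3 of the 9 genes passed, against 0 when only the arrays of those groups were fitted, which leaves fewer arrays to estimate the spread. Between the populations after PBS, 0 passed, against 1, H2-Aa, with the replicate number as a block (adjusted p = 0.0178) and 1 without the arrays numbered 3. The labels do not say whether the numbers pair the arrays. The correlation of deviations between 15 same-numbered pairs ran from -0.0345 to 0.176, against -0.127 to 0.0912 for other pairs. The 2 same-numbered pairs above 0.1 were both of arrays numbered 3. The block changed no other call among the 9 genes. Leaving out single arrays gave 3 to 6 genes passing on average, 3 to 4 in Ly-6D- CLPs and 3 each time in Ly-6D+ CLPs.

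Ciita on average also missed the threshold when every probe set was tested by itself (adjusted p = 0.0546), and its Ly-6D- difference passed with a variance trend and robust estimation (adjusted p = 0.0263), array weights (0.0419), the dimmest 33.3% left out (0.0394), further quantile normalization (0.046), and without Ly-6D- CpG array 3 (0.0374). H2-DMb1 on average passed with the trend (0.0419), with array weights (0.0424) and without the arrays numbered 3 (0.0303), and H2-DMb2 with the trend (0.0421). The sign changed only for differences near 0. H2-Oa after CpG read 0.03 with array weights, 0.0047 after further quantile normalization and 0.14 without the arrays numbered 3. With single arrays left out, the populations differed after CpG by -0.05 to 0.32 for H2-Aa, -0.23 to 0.10 for H2-Ab1, -0.03 to 0.35 for H2-Eb1, -0.27 to 0.13 for H2-DMb1 and -0.11 to 0.09 for H2-Oa, and after PBS by -0.03 to 0.31 for H2-Ob and -0.08 to 0.24 for Ciita. The difference between the CpG changes ran from -0.02 to 0.37 for H2-Ab1 and from -0.02 to 0.11 for H2-DMa. The cause was not tested. Over all genes the counts passing moved more, from 4 to 425 for CpG in Ly-6D- CLPs (121 as reported), 0 to 18 in Ly-6D+ CLPs (6), 6 to 302 on average (107), 185 to 697 between the populations after PBS (439) and 264 to 727 after CpG (474).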
